A study of Drosophila melanogaster with 9 samples.

Results

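The axon guidance ligands and receptors described here are a set of 10 genes listed by name: the ligands NetA, NetB, sli and Sema1a, the receptors fra, robo1, Lar, Ptp69D and Dscam1, and comm, which regulates Robo receptors. A member was measured where a probe set of the array was annotated to that gene alone, under its current or an older symbol. This gave 11 probe sets for 9 of the 10 members, out of 18769 probe sets and 11982 named genes; NetA had no such probe set and is only named here. The rule uses gene names and no measured value, although earlier results of these data were known when the genes were listed.

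The series holds 9 arrays of the Affymetrix Drosophila Genome 2.0 type, 3 in each of 3 groups, each with the total RNA of pooled, dechorionated whole fly embryos. The first group, called the cbt mutant, was homozygous for cbtEP(2)2237E1, an allele of cabut (cbt), which encodes a zinc finger transcription factor; these embryos were sorted as those without GFP from a stock with a twi-eGFP balancer. In the second group, Cbt>69B, the epidermal driver 69B-Gal4 directed a UAS-Cbt transgene. The third group was w1118, a white-eyed strain also passed through the embryo sorter, and the design compares each of the other groups with it. All embryos were at stages 10 to 13, which the labels tie to dorsal closure. Each mutant and each Cbt>69B sample pooled about 1000 embryos, while none of the sources used here states how many w1118 embryos were pooled, and no embryos with the driver alone were analysed here. The labels do not say whether the 3 samples of a group were separate collections, so p-values reflect only how these samples scatter, and that scatter may be technical.

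Axon guidance proteins steer growing axons by attraction or repulsion. In the fly ventral nerve cord, netrins attract commissural axons through Frazzled, while Slit from midline glia repels axons that carry Robo receptors. Commissureless lets axons cross by sorting newly made Robo to late endosomes, away from the growth cone surface. Sema1a is a transmembrane semaphorin that signals through Plexin A and can itself act as a receptor. Lar and Ptp69D are receptor tyrosine phosphatases of motor and central axons, and Dscam1 is an immunoglobulin receptor with very many splice forms that mediates self-avoidance and also binds netrin. Several members are also made outside the nervous system at these stages, in epidermis, muscle or trachea.

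2 features of the arrays touch every value below. The cbt probe set, the available check of the labels, averaged 4.26 in the mutant, 3.36 on the arrays labelled Cbt>69B and 6.73 in w1118 (log2 units). It therefore did not stand higher on the arrays labelled Cbt>69B, where the difference from w1118 was -3.37 (limma adjusted p = 0.0436) against -2.46 in the mutant (adjusted p = 0.19), and every direction given for the arrays labelled Cbt>69B carries that limit. Whether this probe set also reads the UAS-Cbt transcript is not known from the files. The w1118 arrays also fell apart: replicates 1 and 3 correlated at 0.987 over all probe sets, while replicate 2 correlated with them at 0.89 and 0.894, with the mutant arrays at 0.957 to 0.97 and with the arrays labelled Cbt>69B at 0.968 to 0.981. The cbt level of w1118 replicate 2 was 6.05, beside 6.22 and 7.90 on w1118 replicates 1 and 3, above 3.85 to 4.70 in the mutant and 3.16 to 3.74 on the arrays labelled Cbt>69B. Whether a mix-up of samples lies behind the split of the w1118 arrays cannot be checked from the files, and this limits every difference from w1118 below. The poly-A spike-in controls averaged 1.71 and 2.09 on w1118 replicates 1 and 3, against 2.83 to 3.51 on the other 7 arrays; their part in the results was not tested. Neuronal elav lay between 5.22 and 8.44 and glial repo between 4.76 and 6.13, above background on all 9 arrays. Background is the highest of 17 Tag controls on an array (0.58 to 1.20), and 43.8 to 62.0% of probe sets exceeded it.

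No member passed the test in any comparison. Of the 9 measured members, 0 had a limma adjusted p under 0.05 between the mutant and w1118, where 0.133% of all probe sets did, 0 between the arrays labelled Cbt>69B and w1118 (0.373%), 0 between the arrays labelled Cbt>69B and the mutant (0.256%), and 0 in the F test over the 3 groups (0.389%). At an unadjusted p under 0.05, 3 members were lower in the mutant than in w1118 (robo1, NetB and Sema1a), against 5.17% of all probe sets. The arrays labelled Cbt>69B had 5 lower members by that measure (those 3 with Lar and Dscam1), against 15.6%. Between the arrays labelled Cbt>69B and the mutant it was comm alone, against 9.17%. Both comparisons with w1118 use the same 3 control arrays, so their values are not independent of each other. RNA was taken from whole embryos, so fewer cells of a type and less RNA per cell cannot be told apart.

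**Figure D1:**
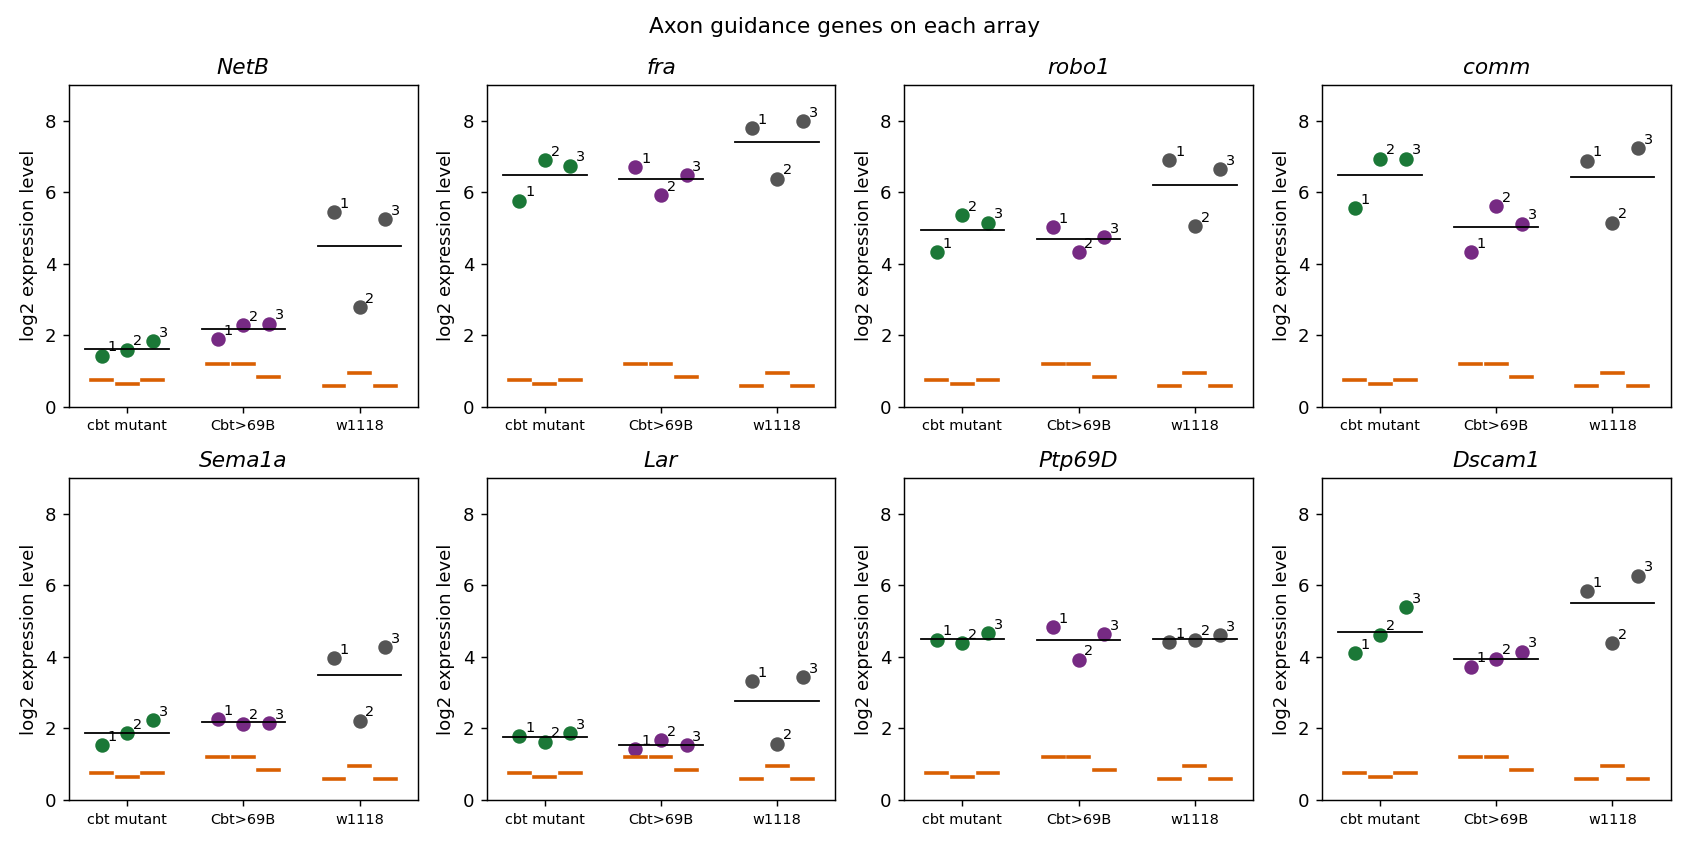
Level (log2) of each axon guidance gene above background on every array; points are single arrays with their replicate number, grouped from left as cbt mutant, Cbt>69B and w1118, black bars are group means (n = 3) and orange bars the background of each array. For every gene but Ptp69D, w1118 replicates 1 and 3 lie well above w1118 replicate 2.

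Among the ligands, NetB had the largest difference. Netrin-B is a secreted, laminin-related attractant made by midline cells and some muscles, and NetA is its neighbouring gene. The NetB level (log2) was 1.43, 1.59 and 1.84 in the mutant, 1.89, 2.28 and 2.32 on the arrays labelled Cbt>69B, and 5.45, 2.79 and 5.24 in w1118. All 6 mutant and Cbt>69B arrays were thus below all 3 w1118 arrays, and the mutant arrays were below those labelled Cbt>69B. The mutant mean was 1.62 ± 0.20, against 4.49 ± 1.48 in w1118 (SD, n = 3 each), a log2 difference of -2.88 (SE 0.63, 95% interval -4.33 to -1.42), or 7.34-fold lower, with a limma adjusted p of 0.247. On the arrays labelled Cbt>69B the mean was 2.16 ± 0.24 and the log2 difference from w1118 was -2.33 (95% interval -3.78 to -0.88), or 5.03-fold lower, with an adjusted p of 0.0963. Neither passed the threshold, and the 2 low groups differed from each other by 0.54 (95% interval -0.91 to 2.00, adjusted p = 0.637). The smallest margin of NetB over background was 0.69, so the sizes of its differences from w1118 are uncertain.

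Sema1a, the transmembrane semaphorin, had levels of 1.53, 1.87 and 2.23 in the mutant, 2.26, 2.13 and 2.15 on the arrays labelled Cbt>69B, and 3.97, 2.22 and 4.27 in w1118. Replicate 2 of w1118 lay among the mutant and Cbt>69B arrays, so the groups overlapped. The log2 difference from w1118 was -1.61 in the mutant (95% interval -2.73 to -0.48, limma adjusted p = 0.415) and -1.31 on the arrays labelled Cbt>69B (-2.44 to -0.19, adjusted p = 0.124). The smallest margin of Sema1a over background was 0.79, so these sizes are uncertain.

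The Slit gene sli gave no usable level. Slit is the secreted midline repellent and the ligand of Robo receptors. Its 2 probe sets read 0.20 to 0.79 and 0.29 to 1.09, not above background on any of the 9 arrays. No comparison of sli is therefore made.

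Of the midline receptors, fra was a bright probe set. Frazzled is the fly member of the DCC family and the attractive netrin receptor. Its levels were 5.76, 6.90 and 6.74 in the mutant, 6.69, 5.92 and 6.48 on the arrays labelled Cbt>69B, and 7.80, 6.38 and 7.99 in w1118. Replicate 2 of w1118 fell inside the range of both other groups. The log2 difference was -0.92 between the mutant and w1118 (95% interval -2.03 to 0.19, limma adjusted p = 0.628) and -1.03 between the arrays labelled Cbt>69B and w1118 (-2.13 to 0.08, adjusted p = 0.179).

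The Slit receptor gene robo1 read 4.32, 5.35 and 5.15 in the mutant, 5.03, 4.33 and 4.75 on the arrays labelled Cbt>69B, and 6.89, 5.04 and 6.65 in w1118. All arrays labelled Cbt>69B were below all w1118 arrays, the nearest pair being 5.03 and 5.04, whereas 2 mutant arrays exceeded w1118 replicate 2. The log2 difference from w1118 was -1.25 in the mutant (SE 0.50, 95% interval -2.41 to -0.10, limma adjusted p = 0.526) and -1.49 on the arrays labelled Cbt>69B (-2.64 to -0.33, adjusted p = 0.108).

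The regulator of Robo sorting, comm, was the member in which the mutant and the arrays labelled Cbt>69B lay farthest apart. It read 5.55, 6.94 and 6.94 in the mutant, 4.32, 5.60 and 5.12 on the arrays labelled Cbt>69B, and 6.88, 5.15 and 7.23 in w1118. Mutant replicate 1 (5.55) lay just under Cbt>69B replicate 2 (5.60), and the other mutant arrays were above all 3 arrays labelled Cbt>69B. The arrays labelled Cbt>69B differed from the mutant by -1.47 (SE 0.63, 95% interval -2.92 to -0.01, limma adjusted p = 0.262) and from w1118 by -1.41 (-2.86 to 0.04, adjusted p = 0.166). Between the mutant and w1118 the difference was 0.06 (-1.40 to 1.51, adjusted p = 0.994), an interval wide enough to hold a shift of either sign.

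The receptor phosphatases Lar and Ptp69D showed unlike patterns. Lar read 1.79, 1.63 and 1.86 in the mutant, 1.42, 1.68 and 1.54 on the arrays labelled Cbt>69B, and 3.33, 1.57 and 3.43 in w1118, so that w1118 replicate 2 lay inside the Cbt>69B range. Its log2 difference from w1118 was -1.02 in the mutant (95% interval -2.04 to 0.01, limma adjusted p = 0.558) and -1.23 on the arrays labelled Cbt>69B (-2.26 to -0.20, adjusted p = 0.118). The smallest margin of Lar over background was 0.21, so these sizes are uncertain.

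Ptp69D was nearly level across the groups. Its arrays read 4.48, 4.38 and 4.67 in the mutant, 4.83, 3.92 and 4.63 for the label Cbt>69B, and 4.42, 4.48 and 4.61 in w1118. The log2 difference from w1118 was 0.01 in the mutant (95% interval -0.52 to 0.53, limma adjusted p = 0.997) and -0.04 on the arrays labelled Cbt>69B (-0.57 to 0.48, adjusted p = 0.908). It is the one measured member above background in which w1118 replicate 2 stood level with replicates 1 and 3.

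Dscam1 was read by its brighter probe set, since the other read 0.28 to 0.96 and was not above background on any array. The brighter one read 4.10, 4.62 and 5.40 in the mutant, 3.73, 3.95 and 4.15 on the arrays labelled Cbt>69B, and 5.83, 4.39 and 6.27 in w1118. All arrays labelled Cbt>69B were below all w1118 arrays, while 2 mutant arrays exceeded w1118 replicate 2. The log2 difference from w1118 was -1.55 on the arrays labelled Cbt>69B (SE 0.50, 95% interval -2.71 to -0.40, limma adjusted p = 0.104) and -0.79 in the mutant (-1.95 to 0.36, adjusted p = 0.714).

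Counted over the measured members, arrays of the mutant all lay below those of w1118 for 1 (NetB), against 4.42% of all probe sets. Arrays labelled Cbt>69B all lay below w1118 for 3 (NetB, robo1 and Dscam1), against 12.0%. Against the mutant, no member was lower on all arrays labelled Cbt>69B, against 16.2%. Over the 8 members above background, the median log2 difference was -0.97 for the mutant against w1118, -1.36 for the arrays labelled Cbt>69B against w1118 and -0.16 for the arrays labelled Cbt>69B against the mutant. The medians over all 18769 probe sets, those at background included, were 0.01, 0.09 and 0.08 for these comparisons. Other probe sets with a mean level over 2 are a closer match. For genes over 16 kb their medians against w1118 were -0.75 in the mutant and -1.07 on the arrays labelled Cbt>69B. For genes of 4 to 16 kb they were -0.30 and -0.82.

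**Figure D2:**
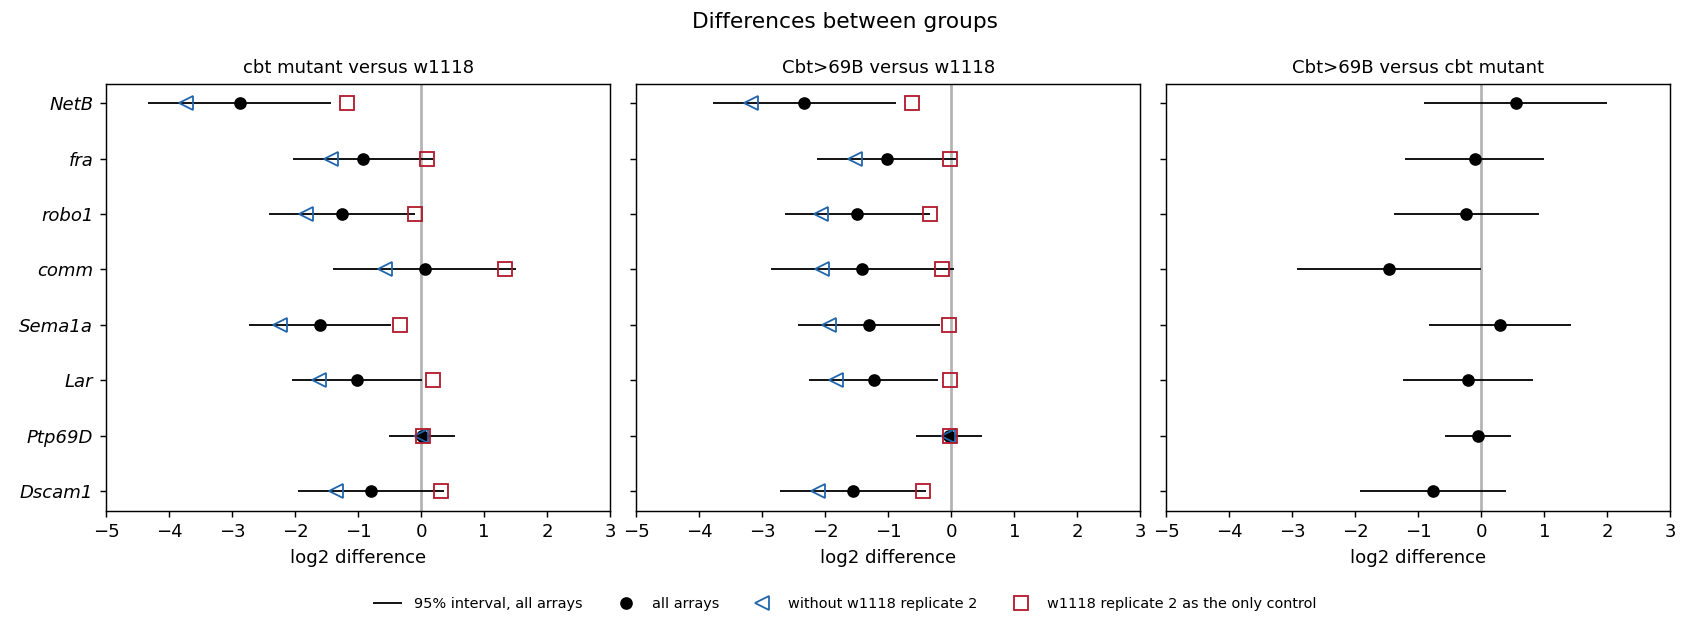
Log2 differences of the members above background for the mutant minus w1118, Cbt>69B minus w1118 and Cbt>69B minus mutant; black points are limma estimates with 95% intervals, blue triangles leave out w1118 replicate 2 and red squares use it as the only control. NetB at -2.88 lies farthest from 0 and Ptp69D stays near 0.

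The differences from w1118 rested on w1118 replicates 1 and 3. Against those alone, 6 members fell in the mutant (limma adjusted p under 0.05): NetB, Sema1a, fra, robo1, Lar and Dscam1, where 12.1% of all probe sets fell. The same comparison for the arrays labelled Cbt>69B gave 7, those 6 with comm, where 21.0% fell. NetB then differed by -3.73 in the mutant (adjusted p = 0.000111) and by -3.18 on the arrays labelled Cbt>69B (adjusted p = 6.27e-05). The arrays labelled Cbt>69B against the mutant then had 0 members that fell, against 8.85% of all probe sets. The split of the w1118 arrays was seen in these same data, so the limma p-values without replicate 2 are only descriptive.

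With w1118 replicate 2 as the only control, 0 members passed in the mutant and 0 on the arrays labelled Cbt>69B, against 0.202% of all probe sets in each. The mutant then differed in robo1 by -0.10, in fra by 0.09, in Lar by 0.19 and in Dscam1 by 0.31. NetB remained the member farthest below the control among the ligands and receptors, at -1.17 in the mutant (limma adjusted p = 0.123) and -0.63 on the arrays labelled Cbt>69B (adjusted p = 0.557). It was also the one member with all 6 mutant and Cbt>69B arrays below replicate 2. In comm the mutant stood 1.32 above replicate 2 (adjusted p = 0.401). The lone control array is assumed in this fit to vary like the other groups.

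Most members are long genes, and length moved with the differences among probe sets with a mean level over 2 and a known gene length. Gene lengths, introns included, ranged from 6.62 kb for Ptp69D, 6.92 kb for comm and 8.45 kb for robo1, over 35.1 kb for fra, 63.3 kb for NetB and 64 kb for Dscam1, to 130 kb for Sema1a and 145 kb for Lar (RefSeq table, Release 6 plus ISO1 MT). For 588 other probe sets with a mean level over 2 and a gene over 16 kb, the median log2 difference from w1118 was -0.75 in the mutant, where 86.9% were lower, and -1.07 on the arrays labelled Cbt>69B, where 85.2% were lower. For 648 with genes up to 1 kb the medians were 0.56 and 0.59 in the same order. Against w1118 replicate 2 alone, the medians over 16 kb were 0.11 in the mutant and -0.14 on the arrays labelled Cbt>69B.

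Within that length class NetB lay at the low end. None of the 588 other long genes' probe sets had a lower difference than NetB between the mutant and w1118, and 47 had one between the arrays labelled Cbt>69B and w1118. Against w1118 replicate 2 alone, 8 were lower than NetB in the mutant and 87 on the arrays labelled Cbt>69B. With all w1118 arrays, the other long members lay inside the class in the mutant. Of the 588, 43 were lower than Sema1a, 200 lower than Lar, 231 lower than fra and 278 lower than Dscam1. For 1610 other probe sets with a mean level over 2 and a gene of 4 to 16 kb, the medians were -0.30 in the mutant and -0.82 on the arrays labelled Cbt>69B. In the mutant, 108 of these 1610 were lower than robo1, 1159 lower than comm and 1109 lower than Ptp69D. Spearman's rank correlation of length with the difference over the 8 members was -0.55 in the mutant and -0.21 on the arrays labelled Cbt>69B, a description over genes that share the same arrays. Over all 6075 probe sets with a mean level over 2, members included, it was -0.58 and -0.40. With each array's trend of level on gene length removed before the fit, no member passed. NetB then differed from w1118 by -2.59 in the mutant (limma adjusted p = 0.193) and by -2.05 on the arrays labelled Cbt>69B (adjusted p = 0.066). On the arrays labelled Cbt>69B, 3 differences shrank by over 1.5 times, to -0.97 for robo1, -0.90 for comm and -0.67 for fra. In the mutant Dscam1 became -0.51, beside -0.79 without the correction.

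**Figure D3:**
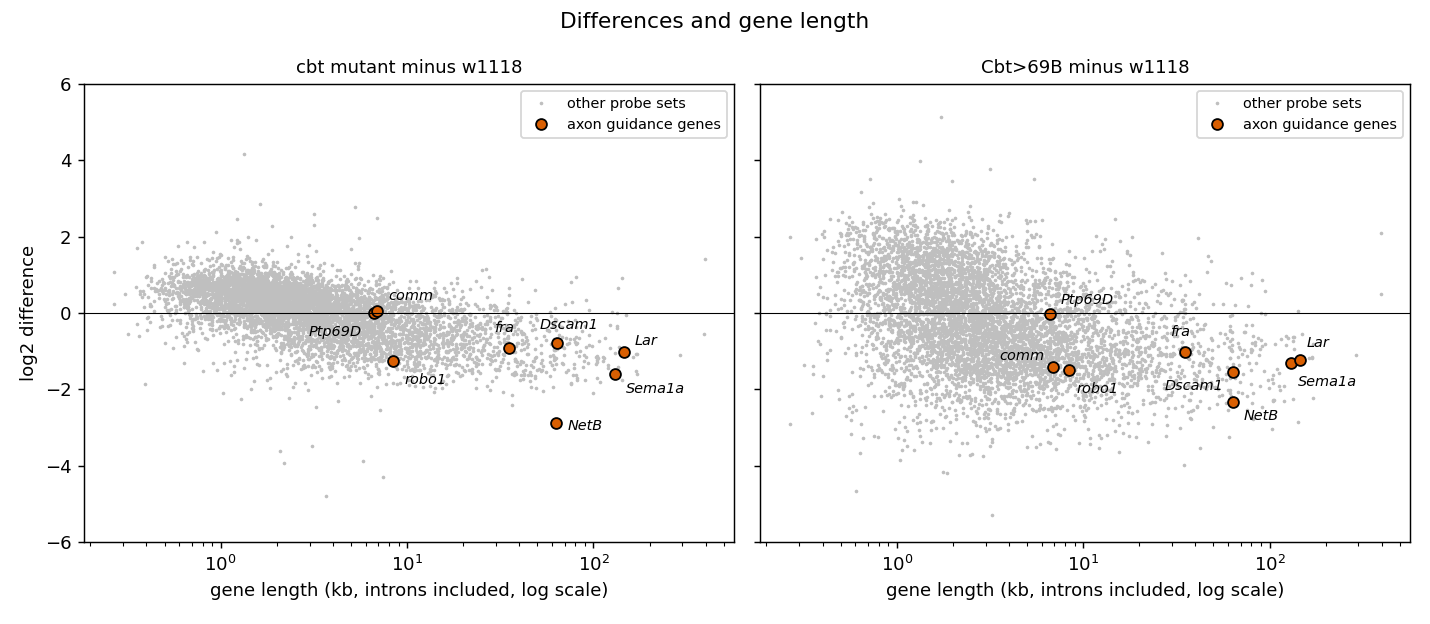
Log2 difference from w1118 against gene length (kb, introns included, log axis) for the mutant on the left and Cbt>69B on the right; grey points are other probe sets with a mean level over 2 and orange points the members. Long genes sit mostly below 0, and NetB at -2.88 lies below the other long genes in the mutant.

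6 of the 8 members above background followed each other over the arrays, and comm and Ptp69D did so less. Pearson's r over the 9 arrays, which share their groups and the split in w1118, was 0.975 for robo1 and fra, 0.972 for NetB and Sema1a, and 0.938 for Sema1a and Lar, and 0.785 (NetB and Dscam1) was the lowest among these 6. The correlations of comm were 0.858 with Dscam1 and 0.476 (NetB) to 0.681 (Lar) with the other 5. Ptp69D correlated with the others at -0.147 to 0.31. For a profile of all 9 measured members, sli at background included, each gene's level was centred on its own mean over the arrays. The median of these centred levels was -0.62, -0.11 and -0.06 in the mutant, -0.26, -0.48 and -0.44 on the arrays labelled Cbt>69B, and 1.11, -0.30 and 1.37 in w1118. Of 11973 candidate genes, the probe sets most like this profile over the 9 arrays were those of Not3 (r = 0.998), srp (0.994), Ythdf (0.992), ena (0.992) and Rilpl (0.991). These genes were picked for the highest r, so their r values are a description and not a test. Not3, the closest, read 6.19, 4.50 and 6.35 in w1118. It read 4.13, 4.76 and 4.90 in the mutant and 4.58, 4.39 and 4.45 on the arrays labelled Cbt>69B. Of these genes only ena was on a guidance list used here. The gene ena encodes Enabled, an actin regulator that binds the cytoplasmic tail of Robo. Its levels were 2.25, 2.75 and 2.96 in the mutant, 2.78, 2.62 and 2.68 on the arrays labelled Cbt>69B, and 4.77, 2.59 and 5.05 in w1118, and its differences from w1118 did not pass the test (limma adjusted p = 0.52 in the mutant and 0.139 for Cbt>69B).

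Other genes of the guidance pathways were read from 3 lists. The list of other guidance ligands and receptors had 27 of 35 genes measured, and 0 rose or fell in any of the 3 comparisons. Their median log2 difference was -0.16 in the mutant, -0.52 on the arrays labelled Cbt>69B and -0.01 between those arrays and the mutant. Over the 25 of them above background on any array, the medians were -0.40, -0.54 and -0.09 in that order. At an unadjusted p under 0.05, 4 of the 27 were lower in the mutant and 0 higher, against 5.17% and 3.84% of all probe sets. On the arrays labelled Cbt>69B, 9 were lower and 1 higher, against 15.6% and 16.3%. Without w1118 replicate 2, 13 fell and 1 rose in the mutant, where 12.1% of all probe sets fell and 9.11% rose. The arrays labelled Cbt>69B then had 14 that fell and 2 that rose, against 21.0% and 19.6%.

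The repulsive netrin receptor unc-5 read 6.41, 7.37 and 6.80 in the mutant, 6.43, 6.28 and 6.40 on the arrays labelled Cbt>69B, and 7.59, 7.03 and 7.88 in w1118. All arrays labelled Cbt>69B were below all w1118 arrays, with a difference of -1.13 (limma adjusted p = 0.0941), while the mutant overlapped w1118 at -0.64 (adjusted p = 0.564). The gene fend, which encodes a transmembrane protein of motor axon guidance, differed from w1118 by -0.85 in the mutant (adjusted p = 0.52) and by -1.36 on the arrays labelled Cbt>69B (adjusted p = 0.0939).

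Axonal adhesion molecules, with 10 of 12 genes measured, had medians of -0.99 in the mutant and -1.15 on the arrays labelled Cbt>69B, and 0 rose or fell. Over the 9 of them above background on any array, the medians were -1.04 and -1.21. The homophilic adhesion gene Con differed by -1.75 in the mutant and by -2.86 on the arrays labelled Cbt>69B (limma adjusted p = 0.106), where 2 of the 3 arrays were below background, so the size of that difference is uncertain. Its levels were 1.92, 2.49 and 2.22 in the mutant, 1.16, 1.06 and 1.08 on the arrays labelled Cbt>69B, and 5.70, 1.40 and 4.77 in w1118, so the mutant overlapped w1118 and stood above its replicate 2. Nrg, the fly neuroglian, differed by -1.25 in the mutant and by -2.10 on the arrays labelled Cbt>69B (adjusted p = 0.108). Without w1118 replicate 2, 8 of the 10 fell in the mutant (12.1% of all probe sets) and 8 on the arrays labelled Cbt>69B (21.0%).

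Cytoplasmic effectors of the receptors, with 10 of 20 genes measured, had medians of -0.61 in the mutant and -1.15 on the arrays labelled Cbt>69B, and 0 rose or fell. RhoGAP93B, a GTPase-activating protein that binds Robo, read 3.15, 3.29 and 3.34 in the mutant, 2.70, 3.19 and 3.21 on the arrays labelled Cbt>69B, and 4.85, 3.63 and 4.82 in w1118. Both groups lay below all w1118 arrays, by -1.17 in the mutant (limma adjusted p = 0.362) and -1.40 on the arrays labelled Cbt>69B (adjusted p = 0.0931). Without w1118 replicate 2, 5 of the 10 fell in the mutant, against 12.1% of all probe sets, and 8 on the arrays labelled Cbt>69B, against 21.0%.

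**Figure D4:**
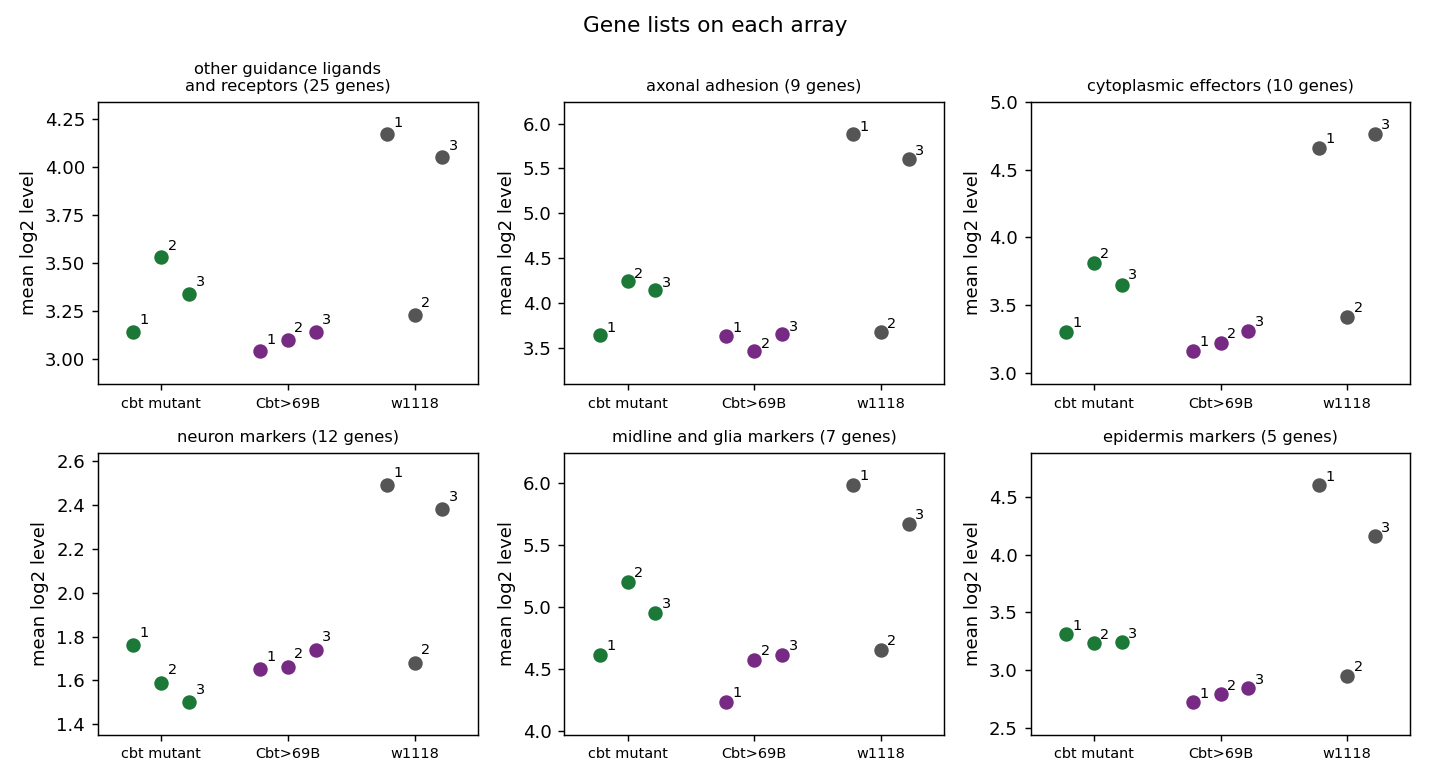
Mean log2 level on each array of the genes above background in 3 guidance lists (top) and 3 cell type marker lists (bottom), grouped as cbt mutant, Cbt>69B and w1118; numbers are replicates and the vertical axes differ between panels. In each panel w1118 replicates 1 and 3 stand above all other arrays, as for neuronal markers at 2.49 and 2.38.

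Cell type markers moved with the same w1118 arrays. The mean level of 12 neuronal markers was 1.50 to 1.76 in the mutant and 1.65 to 1.74 on the arrays labelled Cbt>69B, against 2.49, 1.68 and 2.38 in w1118. For 7 markers of midline cells and other glia it was 4.61 to 5.20 in the mutant and 4.23 to 4.61 on the arrays labelled Cbt>69B, against 5.98, 4.65 and 5.67 in w1118. Of the neuronal markers, 4 were above background on all 9 arrays (elav, fne, nSyb and futsch) and the other 8 only on some, so their mean and median lie near the floor; of the glial ones, 6 of 7 were above it on all arrays. In both lists w1118 replicate 2 stood within the range of the other groups, below replicates 1 and 3. Median differences from w1118 in the mutant and on the arrays labelled Cbt>69B were -0.20 and -0.19 for neurons, -0.62 and -0.59 for midline cells and other glia, -0.68 and -1.02 for epidermis (6 of 7 measured, with ple at background on all arrays), -0.79 and -1.78 for muscle (2 of 8 measured) and -0.81 and -1.08 for amnioserosa (5 of 5 measured). In the mutant the 2 muscle markers went opposite ways, up by -1.74 and bap by 0.16, so their median describes neither. No marker gene passed the test, and the part of cell makeup in the members' values was not tested.

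Single markers named by the same rule differed in direction, and none passed the test. The neuronal gene fne read 4.09, 4.08 and 4.14 in the mutant, 5.07, 4.87 and 5.39 on the arrays labelled Cbt>69B, and 7.66, 4.72 and 6.15 in w1118, a difference from w1118 of -2.08 in the mutant (limma adjusted p = 0.408). By contrast wrapper, a surface protein of midline glia, read 4.20, 3.80 and 3.85 in the mutant, 4.64, 4.57 and 4.64 on the arrays labelled Cbt>69B, and 3.90, 4.02 and 3.20 in w1118. Its arrays labelled Cbt>69B stood above all others, by 0.91 over w1118 (adjusted p = 0.0934) and by 0.67 over the mutant (adjusted p = 0.189). The midline gene S, the Star protein of EGF receptor signalling, differed from w1118 by -1.23 in the mutant and by -2.93 on the arrays labelled Cbt>69B (adjusted p = 0.0939). On the arrays labelled Cbt>69B, shg, the E-cadherin gene of epithelia, differed from w1118 by -1.62, ush by -1.43, grh by -1.36, bap by -0.95 and tup by -0.58. In the mutant these differences were -1.29 for grh, -1.08 for tup, -0.79 for ush, -0.72 for shg and 0.16 for bap. The muscle gene up differed by -1.74 in the mutant, and by -2.61 on the arrays labelled Cbt>69B, of which 2 were below background, so that size is uncertain. ChAT, of cholinergic neurons, was not above background on any of the 3 arrays labelled Cbt>69B. Its difference in the mutant, where 1 array was below background, was -0.58.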

How the data were processed

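Total RNA of 9 embryo samples was hybridised to 9 arrays. Each deposited value is the log2 level of 1 probe set on 1 array. The tools listed are RMA, affy and limma, with no version, per the submitters' processing notes. No source used here names the chip definition file. They were used as deposited, without further normalization. Of 18952 probe sets, 183 controls were left out. Gene names came from the platform annotation (13647 with 1 symbol, 402 with several, 4720 with none) and symbols updated by gene identifier for 13544. Probe sets with several symbols named no gene. A gene with several probe sets was read by the brightest, and every probe set of a member is given. A probe set was above background where it exceeded the highest of 17 Tag controls of its array.

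All 9 arrays were fitted together by group in limma 3.58.1 (R 4.3.3), with Benjamini-Hochberg adjustment over 18769 probe sets and a threshold of 0.05. The fit was first tried on simulated arrays with independent noise. These held no split of the controls, so the trial does not cover that of w1118. Named genes are the members, cbt, the genes of each list with the smallest F test p, and the 5 most like the members' profile. The members and lists were chosen with earlier results of these data known. Replicate numbers are shared between groups, but deviations of same-numbered arrays correlated at -0.374 to 0.26, so they were not taken as pairs. Alternatives were another scaling, a dim filter, array weights, a replicate block, a length correction and leaving out arrays. The number of arrays limits the precision. No sequence is printed. 1 gene that the naming rule picked is not reported here.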

Additional observations from a re-analysis of the deposited data

How the results depend on the processing

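The alternatives were planned and none was added. The 0 members called in each of the 3 comparisons and in the F test stayed 0 with array medians set equal, cyclic loess, a filter on dim probe sets, the gene length trend removed, w1118 replicate 2 as the only control, and a replicate block, under which 0 members were called in each; the block left 11, 17 and 30 calls over all probe sets for mutant against w1118, Cbt>69B against w1118 and Cbt>69B against mutant, beside 25, 70 and 48 without it. Array weights called 5, 7 and 1 members in that order and 7 in the F test. Of all 18769 probe sets they called 5329, 8846 and 3802, and 8658 in the F test. Leaving out 1 array at a time gave 0 to 6, 0 to 7 and, in the F test, 0 to 7 members, the high values without w1118 replicate 2. Without that array, 3987 and 7625 of all 18769 probe sets were called, and 6978 in the F test. Directions turned for these differences, none of which had passed the test: comm in the mutant (-0.09 by cyclic loess, -0.27 by array weights, -0.58 to 0.52 leaving out 1 array), fra in the mutant (0.09 against w1118 replicate 2), Lar (0.19) and Dscam1 (0.31) likewise, robo1 between Cbt>69B and mutant (0.04 with the length trend removed), Lar between them (0.07 by cyclic loess) and fra between them (-0.46 to 0.11 leaving out 1 array). Ptp69D gave 0.29 by cyclic loess and 0.47 with the length trend removed for Cbt>69B against w1118, 0.22 and 0.26 for Cbt>69B against mutant, and, leaving out 1 array, -0.07 to 0.07 for the mutant against w1118, -0.23 to 0.23 for Cbt>69B against w1118 and -0.23 to 0.22 for Cbt>69B against mutant. The cause was not tested.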
